A study of Mus musculus with 24 samples.

Results

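Crym, Fibcd1, Klhl2, B3galt2, Vgll3, Rasl10a and Trpc6 are 7 genes, of 19938 measured with 1 gene symbol, whose RNA was lower in the hippocampus of FoxO6 mutant mice than in wild type (WT) mice and whose loci lie on other chromosomes than Foxo6. They were chosen by their measured mutant minus WT values on these same arrays, so every genotype difference given for them below is a description of the choice and carries no test. Hippocampal RNA of male mice, 8 to 9 weeks old and of mixed C57BL/6J-129sv background, was read with 24 Affymetrix arrays, 6 in each of 4 groups. The groups were WT basal, FoxO6 null basal, WT after object learning and FoxO6 null after object learning. Basal mice were single-housed for at least 3 days and taken without a task. Learning mice were handled daily, met an empty arena for 10 min, explored a pair of identical objects in it for 10 min 24 h later, and were taken 60 min after that. All 4 groups share the mixed background, on which the DNA around a targeted locus can come from another strain than in WT. The labels name biological replicates without saying whether every array came from its own animal, so p-values reflect the spread among these arrays.

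FoxO6 belongs to the FoxO forkhead transcription factors, which bind DNA at the core GTAAACA and act downstream of insulin and growth factor signalling. In the brain it is known for its expression in the hippocampus and for a role in memory consolidation and synaptic function. The 7 genes belong to no common pathway. Trpc6 encodes a cation channel opened by diacylglycerol, and Fibcd1 a transmembrane receptor with a fibrinogen C domain that binds acetylated sugars such as chitin. Crym encodes mu-crystallin, a cytosolic protein that binds thyroid hormone, and B3galt2 a Golgi enzyme that adds galactose to sugar chains. Klhl2 encodes a Kelch adaptor that brings WNK kinases to the cullin-3 ubiquitin ligase, Rasl10a a small Ras-like GTPase, and Vgll3 a cofactor of the TEAD transcription factors.

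Start-site windows, from 250 bases before to 50 bases after the annotated start, were matched for 6 of the 7 genes in RefSeq on the build GRCm38.p6. The windows of Fibcd1 (chr2:31845956-31846255, minus strand), B3galt2 (chr1:143640447-143640746, plus strand) and Trpc6 (chr9:8543892-8544191, plus strand) are printed 5′ to 3′ on the gene's strand. Fibcd1 is shown for its large change after learning, B3galt2 as the window that holds the short FoxO core, and Trpc6 for its TGACG match. Capitals mark every match to AAACA or TGACG on either strand, a match on the minus strand reading TGTTT or CGTCA.
Fibcd1: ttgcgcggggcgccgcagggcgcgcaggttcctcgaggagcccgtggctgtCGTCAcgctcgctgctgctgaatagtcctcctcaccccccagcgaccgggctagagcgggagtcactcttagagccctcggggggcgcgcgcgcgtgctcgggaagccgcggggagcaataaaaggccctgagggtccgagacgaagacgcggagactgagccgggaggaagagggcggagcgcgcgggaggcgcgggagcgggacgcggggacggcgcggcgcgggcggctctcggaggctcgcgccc
B3galt2: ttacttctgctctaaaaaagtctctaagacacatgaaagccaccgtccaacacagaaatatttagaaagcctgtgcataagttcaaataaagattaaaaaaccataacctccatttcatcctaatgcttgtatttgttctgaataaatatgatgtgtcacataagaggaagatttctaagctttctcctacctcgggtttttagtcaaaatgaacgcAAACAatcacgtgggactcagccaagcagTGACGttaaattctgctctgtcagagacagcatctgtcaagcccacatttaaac
Trpc6: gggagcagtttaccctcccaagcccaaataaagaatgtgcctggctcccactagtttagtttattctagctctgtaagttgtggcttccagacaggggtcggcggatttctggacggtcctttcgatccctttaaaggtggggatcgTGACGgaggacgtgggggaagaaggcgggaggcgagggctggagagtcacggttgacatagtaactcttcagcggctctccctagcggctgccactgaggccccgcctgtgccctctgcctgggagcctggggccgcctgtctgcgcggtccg
The motifs were searched on both strands, and GTAAACA contains AAACA. The full FoxO core GTAAACA was in 0 of the 6 windows, and in 3.65% of all 32851 windows of the same length. The short core AAACA was in 1 window, that of B3galt2, 33 to 29 bases before the start, and in 50.5% of all windows. TGACG, the core that CREB-type factors bind, was in 4 windows against 20.8% of all windows: Fibcd1 (-199 to -195, minus strand), Klhl2 (-62 to -58, minus strand), B3galt2 (-4 to 1, plus strand) and Trpc6 (-103 to -99, plus strand). Positions count the start as 1 and the base before it as -1. The windows of Vgll3 and Rasl10a held none of these motifs. The B3galt2 window was low in G and C, at 37.7%, where the other 5 ran from 60.0% in Trpc6 to 82.7% in Klhl2 and the median of all windows was 52.7%. A match describes letters in a window and is not a site of binding.

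The values are log2 signals, and a level of a gene is not comparable with that of another gene because each of the 7 was read by its own probe set. Array medians lay between 6.16 and 6.30, and arrays of a group correlated across genes at 0.991 to 0.997. Foxo6, the targeted gene, stood at 7.03 ± 0.20 (SD, n = 6) in WT basal, 6.30 ± 0.16 in mutant basal, 6.87 ± 0.15 in WT learning and 6.24 ± 0.15 in mutant learning, with no overlap between genotypes in either state. Whether its probes lie inside the altered stretch of the locus was not tested. Markers of the hippocampus were well above the array medians on all 24 arrays, with Prox1, a dentate granule cell factor, at 8.49 to 9.40 and Wfs1, a CA1 gene, at 8.82 to 9.43. Ttr, the main choroid plexus transcript, ran from 8.46 to 12.11. It parted the WT basal arrays into 11.65, 12.11 and 11.81 for arrays 1 to 3 and 8.80, 9.64 and 9.17 for arrays 4 to 6, while the mutant basal arrays ran from 11.01 to 11.99. The main values that rest on the WT basal group are also given below with arrays 1 to 3 alone. In bulk tissue, fewer cells of a type and less RNA per cell cannot be told apart.

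Averaged over both states, the genotype difference of the 7 genes ran from -0.19 (Klhl2) to -0.35 (Rasl10a) on the log2 scale, which left 87.4% and 78.7% of the WT signal. All 7 were called lower at an adjusted p under 0.05, where 0.216% of all genes were called lower. At basal 4 were called lower (0.0552% of all genes) and after learning 4 (0.0602%). These counts follow from how the genes were chosen. All 6 mutant arrays lay below all 6 WT arrays in 5 of the 7 genes at basal, where 0.186% of all genes did so, and in 3 of the 7 after learning (0.181%). Crym, Fibcd1 and Klhl2 had this separation in both states, as did 0.0351% of all genes.

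**Figure D1:**
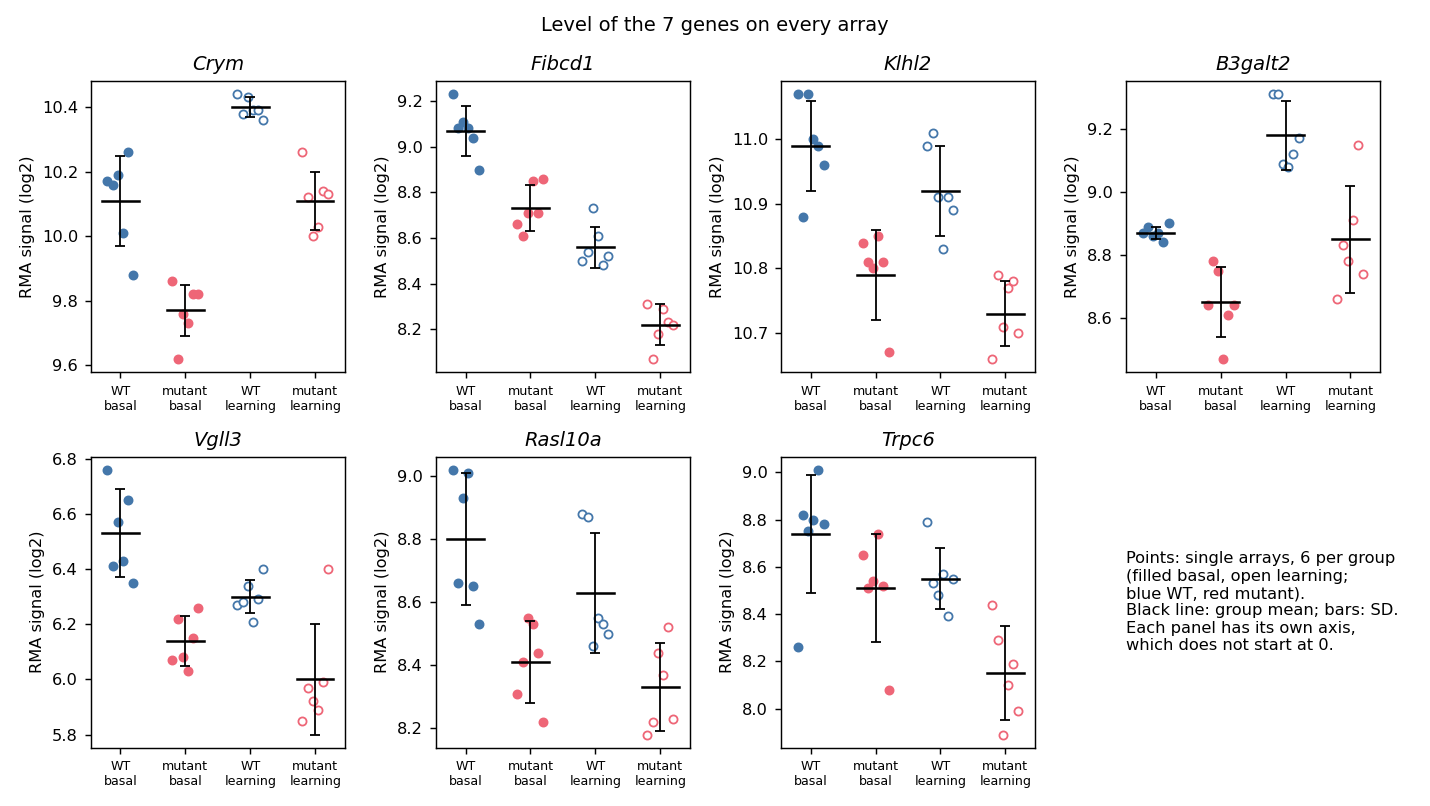
Log2 signal of each of the 7 genes on every array, with 1 panel per gene, 1 column of 6 points per group and the group mean with its SD. Mutant arrays sit below WT arrays in both states in the Crym, Fibcd1 and Klhl2 panels, and the groups overlap most in the Trpc6 panel at basal.

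Fibcd1, the fibrinogen C domain receptor, which is expressed in CA1 pyramidal cells, lay between 8.90 and 9.23 (median 9.08) in WT basal and between 8.61 and 8.86 (8.71) in mutant basal. After learning it lay between 8.48 and 8.73 (8.53) in WT and between 8.07 and 8.31 (8.22) in the mutant. No overlap between genotypes was seen in either state, and the 4 groups formed steps from WT basal down to mutant learning, with WT learning and mutant basal sharing part of their range. The genotype difference was -0.34 (SE 0.0557) at basal and -0.35 (SE 0.0557) after learning, which left 79.2% and 78.5% of the WT signal. Trpc6, the cation channel, had wider groups than Fibcd1, with SDs of 0.13 to 0.25 against 0.09 to 0.11. It lay between 8.26 and 9.01 (median 8.79) in WT basal and between 8.08 and 8.74 (8.53) in mutant basal. After the task it lay between 8.39 and 8.79 (8.54) in WT and between 7.89 and 8.44 (8.14) in the mutant. At basal the ranges overlapped broadly and 1 of 6 mutant arrays lay below the lowest WT array, while after learning 5 of 6 did. The genotype difference of Trpc6 was -0.23 (SE 0.104) at basal and -0.40 (SE 0.104) after learning. WT basal array 1, at 8.26, and mutant basal array 6, at 8.08, stood away from their groups: the basal difference was -0.33 without the former and -0.15 without the latter. With WT basal arrays 1 to 3 alone it was -0.11.

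Crym, the thyroid hormone binding protein, lay between 9.88 and 10.26 (median 10.16) in WT basal and between 9.62 and 9.86 (9.79) in mutant basal. Following the task it lay between 10.36 and 10.44 (10.39) in WT, the narrowest group of the 4 for this gene, and between 10.00 and 10.26 (10.12) in the mutant. The genotypes did not overlap in either state. The difference was -0.34 (SE 0.0516) at basal and -0.29 (SE 0.0516) after learning, which left 78.8% and 82% of the WT signal. B3galt2, the galactosyltransferase, lay between 8.84 and 8.90 (median 8.87) in WT basal and between 8.47 and 8.78 (8.64) in mutant basal. In learning mice it lay between 9.08 and 9.31 (9.14) in WT and between 8.66 and 9.15 (8.81) in the mutant. B3galt2 did not overlap between genotypes at basal, and after learning 5 of 6 mutant arrays lay below the lowest WT array. Its difference was -0.22 (SE 0.0623) at basal and -0.33 (SE 0.0623) after learning.

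Klhl2, the ubiquitin ligase adaptor, had the smallest averaged difference of the 7 and group SDs of 0.05 to 0.07. It lay between 10.88 and 11.07 (median 10.99) in WT basal and between 10.67 and 10.85 (10.81) in mutant basal. After learning it lay between 10.83 and 11.01 (10.91) in WT and between 10.66 and 10.79 (10.74) in the mutant. The genotypes did not overlap in either state, and the difference was -0.20 (SE 0.0379) at basal and -0.19 (SE 0.0379) after learning. Rasl10a, the Ras-like GTPase, lay between 8.53 and 9.02 (median 8.79) in WT basal and between 8.22 and 8.55 (8.42) in mutant basal. After the task it lay between 8.46 and 8.88 (8.54) in WT and between 8.18 and 8.52 (8.30) in the mutant. In each state 5 of 6 mutant arrays of Rasl10a lay below the lowest WT array, and the difference was -0.39 (SE 0.0874) at basal and -0.30 (SE 0.0874) after learning.

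Vgll3, the TEAD cofactor, had group means close to the array medians. It lay between 6.35 and 6.76 (median 6.50) in WT basal and between 6.03 and 6.26 (6.12) in mutant basal. In learning mice it lay between 6.21 and 6.40 (6.29) in WT and between 5.85 and 6.40 (5.95) in the mutant. The genotypes did not overlap at basal, and after learning 5 of 6 mutant arrays lay below the lowest WT array. The difference was -0.39 (SE 0.0815) at basal and -0.30 (SE 0.0815) after learning. Mutant learning array 6, at 6.40, lay with the highest WT array, and without it the difference after learning was -0.38.

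**Figure D2:**
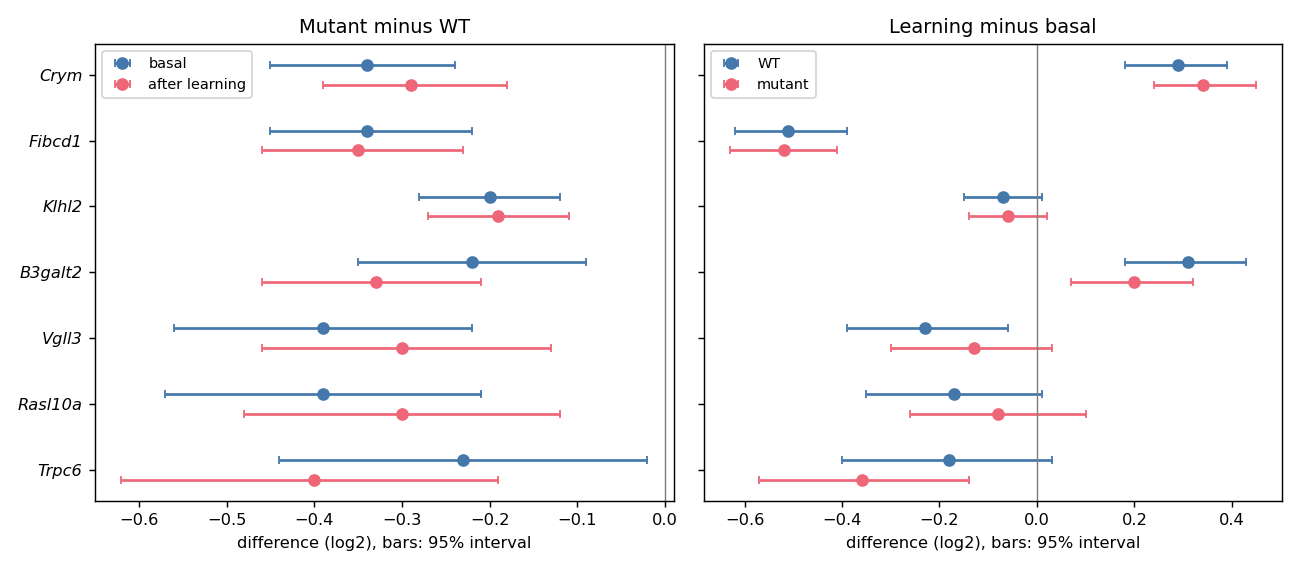
Log2 differences of the 7 genes as points with 95% intervals from limma, on the left mutant minus WT at basal (blue) and after learning (red), on the right learning minus basal in WT (blue) and in the mutant (red). The genotype differences lie between -0.40 and -0.19, while the learning differences lie on both sides of 0, from Fibcd1 in the mutant at -0.52 to Crym in the mutant at 0.34.

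The response to the learning task was tested over all 19938 genes with limma, with Benjamini-Hochberg adjustment. Averaged over genotypes, it was not used to choose the genes. Within 1 genotype it shares group means with the genotype differences that chose them, so those values are not wholly independent of the choice. The response compares learning with basal mice, which also differed in daily handling and in the visit to the empty arena. The part of the object task cannot be told apart from these. The labels name no batch, so a difference in processing between basal and learning arrays could not be examined or told apart from the task. After learning, averaged over genotypes, 6 of the 7 genes changed: Crym and B3galt2 rose, and Fibcd1, Trpc6, Vgll3 and Klhl2 fell. These 6 of 7 stand beside 54.8% of all genes called, 31.7% higher and 23.1% lower. Fibcd1 fell most, by 0.51 (SE 0.0394, adjusted p = 2.58e-12), to 70.1% of its basal signal, and 4.87% of all genes had a larger change in either direction. Crym rose by 0.32 (SE 0.0365, adjusted p = 1.25e-08) and B3galt2 by 0.25 (SE 0.0441, adjusted p = 1.47e-05). Trpc6 fell by 0.27 (SE 0.0736, adjusted p = 0.00246) and Vgll3 by 0.18 (SE 0.0576, adjusted p = 0.00884). The fall of Klhl2 was small, at 0.07 (SE 0.0268, adjusted p = 0.0402), and this call ended in 15 of the 24 refits that leave out 1 array (adjusted p up to 0.0785). Rasl10a had a difference of -0.13 (SE 0.0618, 95% interval -0.25 to 0.00, adjusted p = 0.0865), which passed the threshold without WT basal array 6, mutant basal array 6, or WT learning array 1 or 2.

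Crym, Fibcd1 and B3galt2 were called in both genotypes in the same direction, 3 of 7 genes where 34.7% of all genes were. The rise of Crym was 0.29 in WT (adjusted p = 3.37e-05) and 0.34 in mutants (adjusted p = 2.39e-06). All WT learning arrays of Crym lay above all WT basal arrays, and the same held in the mutant. Fibcd1 fell in each genotype, with a difference of -0.51 in WT (adjusted p = 1.06e-08) and -0.52 in mutants (adjusted p = 6.85e-09), again with no overlap between states in either genotype. B3galt2 rose by 0.31 in WT with no overlap (adjusted p = 0.000157). Its rise in mutants was 0.20 (adjusted p = 0.0121), and there the states overlapped. The mutant call of B3galt2 ended without mutant learning array 5, with a value of 0.14 (adjusted p = 0.0502). No overlap between states, in either direction, was seen in 25.2% of all genes in WT and in 22.7% in the mutant.

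Vgll3 fell in WT by 0.23 (adjusted p = 0.0243), while its mutant value was -0.13 (adjusted p = 0.197). The WT call ended without WT basal array 1 or 5 (adjusted p up to 0.0818), and without mutant learning array 6 Vgll3 fell in the mutant too, by 0.21 (adjusted p = 0.0171). Trpc6 fell in the mutant by 0.36 (adjusted p = 0.00626), while its WT value was -0.18 (adjusted p = 0.158), and in WT it fell by 0.28 without WT basal array 1 (adjusted p = 0.0172). The values of Klhl2 were -0.07 (WT) and -0.06 (mutant) and those of Rasl10a -0.17 and -0.08, none of them called. The WT value of Rasl10a passed the threshold without WT basal array 6 or WT learning array 1 or 2 (adjusted p down to 0.0393). With WT basal arrays 1 to 3 alone, the WT values were 0.23 in Crym, -0.57 in Fibcd1, 0.31 in B3galt2 and -0.28 in Vgll3, all still called (adjusted p up to 0.0288). The values of the other genes were then -0.08 in Klhl2, -0.24 in Rasl10a and -0.06 in Trpc6 (adjusted p from 0.0627 to 0.761). Arrays 1 to 3 are those with high Ttr, while Ttr ran from 8.46 to 10.20 in WT learning. For this contrast the reduced group is therefore not matched in choroid plexus signal. WT basal arrays 4 to 6, nearer to WT learning in Ttr, were not run alone. In all, 4 of 7 genes were called in WT, 2 in each direction, where 43.3% of all genes were (25.1% higher and 18.2% lower). In mutants 4 of 7 were called, again 2 in each direction, against 41.3% (22.6% higher and 18.7% lower).

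Whether the learning response depended on genotype was asked with the interaction, in which the genotype difference at basal is taken from that after learning. None of the 7 genes was called by limma, none had an unadjusted p under 0.05, and the adjusted p was 1 for each. Over all genes 0 were called and 510 had an unadjusted p under 0.05. Trpc6 had the widest interval, -0.17 (95% interval -0.47 to 0.13), followed by Rasl10a at 0.09 (-0.16 to 0.34) and Vgll3 at 0.09 (-0.14 to 0.33). B3galt2 stood at -0.11 (-0.29 to 0.07) and Crym at 0.06 (-0.09 to 0.21). The values nearest 0 were those of Fibcd1 at -0.01 (-0.17 to 0.15) and Klhl2 at 0.01 (-0.10 to 0.12). With WT basal arrays 1 to 3 alone the value of Trpc6 was -0.30 (adjusted p = 1). The interaction is built from the same genotype differences that chose the genes, so these values are not independent of the choice.

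With the learning response and the genotype difference side by side, the genes fell into different orders of the 4 groups. Crym was lowest in mutant basal and highest in WT learning, and mutant learning (10.11) had the mean of WT basal (10.11). B3galt2 had the same order, with mutant learning at 8.85 and WT basal at 8.87. In these genes the difference between mutant learning and WT basal, 0.00 and -0.03, was within the spread of the arrays. The other 5 genes were highest in WT basal and lowest in mutant learning, with means apart by -0.26 in Klhl2, -0.47 in Rasl10a, -0.53 in Vgll3, -0.59 in Trpc6 and -0.86 in Fibcd1. Against WT basal arrays 1 to 3 alone, mutant learning stood at -0.06 in Crym, -0.03 in B3galt2, -0.27 in Klhl2, -0.46 in Trpc6, -0.54 in Rasl10a, -0.58 in Vgll3 and -0.92 in Fibcd1. All mutant learning arrays lay below all WT basal arrays in Fibcd1, Klhl2 and Rasl10a, 3 of the 7, where 11.5% of all genes did so. This comparison contains the genotype difference that chose the genes, so the count follows in part from the choice. Between these ends WT learning came next and mutant basal below it in Klhl2, Vgll3, Rasl10a and Trpc6, and the reverse in Fibcd1, with overlap of these middle groups in all 5 genes.

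**Figure D3:**
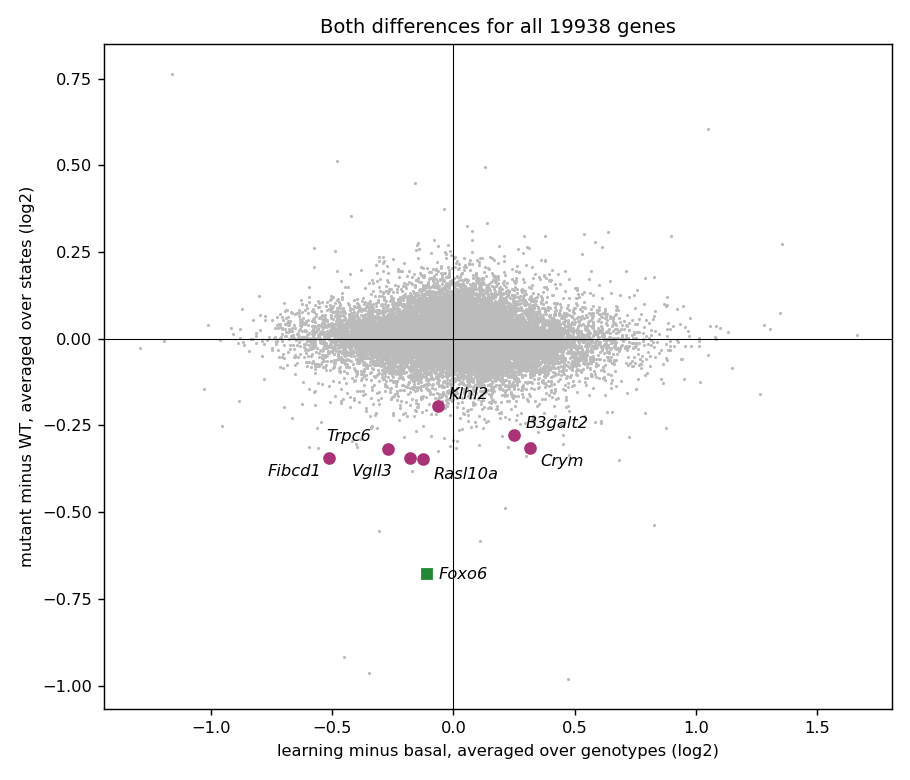
Genotype difference (vertical axis) against learning difference (horizontal axis), each averaged over the other factor, on the log2 scale for all 19938 genes (grey) with the 7 genes and Foxo6 marked. The 7 genes lie below the bulk of the cloud, by choice, and spread along its width from Fibcd1 at -0.51 to Crym at 0.32.

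On the genome the 7 genes lie on 7 chromosomes: B3galt2 on 1, Fibcd1 on 2, Crym on 7, Klhl2 on 8, Trpc6 on 9, Rasl10a on 11 and Vgll3 on 16, while Foxo6 is on 4. Of 43 genes called lower averaged over states, 15 lie within 20 Mb of Foxo6, 19 on its chromosome and 24 on others, and the 7 are among these 24. By size of the difference Rasl10a, Vgll3, Fibcd1, Trpc6 and Crym took places 2 to 6 of the 24 behind Grp (-0.54), which encodes gastrin-releasing peptide, with B3galt2 at place 10 and Klhl2 at place 17. The last gene inside the threshold of 0.05 among the 7 was Trpc6 (adjusted p = 0.0455), Dgkh followed inside it (0.0483), and Mdm4 was the first outside (0.0514). Neighbours within 1 Mb numbered from 4 (Vgll3) to 49 (Fibcd1), and their median genotype difference ran from -0.0494 around B3galt2 to 0.0252 around Trpc6. Ewsr1, an RNA-binding protein gene near Rasl10a, was the only called neighbour, lower by -0.16 (SE 0.0299, adjusted p = 0.0077), where 0.391% of all genes were called in either direction. Ewsr1 stood at 10.38 ± 0.09 in WT basal, 10.24 ± 0.07 in mutant basal, 10.54 ± 0.04 in WT learning and 10.37 ± 0.08 in mutant learning (SD, n = 6).

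Genes of the same families and pathways as the 7, in 7 lists with 120 members of which 110 were measured, were set beside them. Between genotypes, averaged over states, 0 of the 110 were called by limma, where 0.391% of all genes were, and 17 had an unadjusted p under 0.05, or 15.5% against 8.86% of all genes. The median difference was 0.01, against 0.00645 over all genes. The value nearest to a call was that of Rasl12, another Ras-like GTPase, at 0.19 (adjusted p = 0.0572), above 0 where Rasl10a was below. Of these genes 20 share their name's stem with 1 of the 7, and their differences ran from -0.22 (B3galt6, adjusted p = 0.373) to that of Rasl12 (0 called, 6 with an unadjusted p under 0.05, where 8.86% of all genes had one). Klhl3, the other Kelch adaptor known for WNK kinases, was at 0.02 and Rasl10b at 0.07. The learning response was common in the same lists, with 73 of 110 called (66.4%, against 54.8% of all genes), 37 higher and 36 lower.

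The counts for single lists stand beside 31.7% of all genes called higher and 23.1% called lower after learning. In the thyroid hormone list, 4 of 13 genes rose after learning and 6 fell. Dio2, which makes active thyroid hormone, rose by 0.46 (adjusted p = 5.57e-08) and Slco1c1, which carries the hormone into the brain, by 0.34 (adjusted p = 4.24e-08). The receptor gene Thra fell by 0.31 (adjusted p = 1.08e-11), while the receptor gene Thrb rose by 0.23 (adjusted p = 0.00209). Nrgn, a hormone-responsive neuronal gene, fell by 0.37 (adjusted p = 7.98e-11). Among sugar transferases 7 of 16 rose and 6 fell: B3galt1 rose by 0.34 (adjusted p = 3.09e-11), in the direction of B3galt2, while B4galnt1, an enzyme of ganglioside synthesis, fell by 0.54 (adjusted p = 2.98e-13). Among WNK kinase and cullin-3 genes 6 of 15 rose and 6 fell. Wnk2 fell by 0.46 (adjusted p = 9.61e-13) and Wnk1 by 0.33 (adjusted p = 1.09e-09), while Wnk3 rose by 0.26 (adjusted p = 4.14e-08). Slc12a5, the potassium-chloride transporter that WNK kinases regulate, fell by 0.58 (adjusted p = 6.38e-19). Rbx1, the RING subunit of cullin ligases, rose by 0.27 (adjusted p = 1.18e-09).

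Among small Ras-like GTPases 9 of 16 rose and 5 fell. Rheb, the activator of mTORC1, rose by 0.82 (adjusted p = 1.34e-17), and Rasl10b, the closest relative by name of Rasl10a, fell by 0.54 (adjusted p = 1.52e-12). Among TRPC channels and their calcium entry partners 3 of 15 rose and 6 fell. Stim1, the calcium sensor of the endoplasmic reticulum, fell by 0.55 (adjusted p = 4.36e-13). Trpc4 rose by 0.19 (adjusted p = 7.05e-06) where Trpc6 fell, Trpc5 fell by 0.16 (adjusted p = 0.000458), and Trpc1 and Trpc7 were not called. Among Vgll, TEAD and Hippo genes 5 of 20 rose and 4 fell. Ccn1, a secreted matrix protein and known YAP-TEAD target, rose by 0.53 (adjusted p = 9.36e-09) and the cofactor Vgll4 fell by 0.30 (adjusted p = 1.38e-05). Among fibrinogen C domain genes 3 of 15 rose and 3 fell, such as Fgl2, which rose by 0.45 (adjusted p = 2.04e-07), and the matrix protein Tnr, which fell by 0.27 (adjusted p = 1.74e-08).

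After each group's mean was taken off, the 21 pairs had a median correlation of -0.02 over the 24 arrays, with 4 pairs above 0.3 and 3 below -0.3. Klhl2 and Rasl10a were the most alike pair, at r = 0.68 (rho = 0.72), with 0.65 to 0.73 when an array was left out and 0.65 without the 2 arrays farthest from the median of Klhl2. Vgll3 and Trpc6 were the most opposed, at r = -0.50 (rho = -0.52), with -0.60 to -0.38 when an array was left out and -0.32 without the 2 farthest. Crym and Fibcd1 stood at r = 0.40 (rho = 0.27), which fell to 0.10 without the 2 farthest arrays. These values describe arrays that share their processing, and the pairs named are the extremes of 21, so no p is given.

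**Figure D4:**
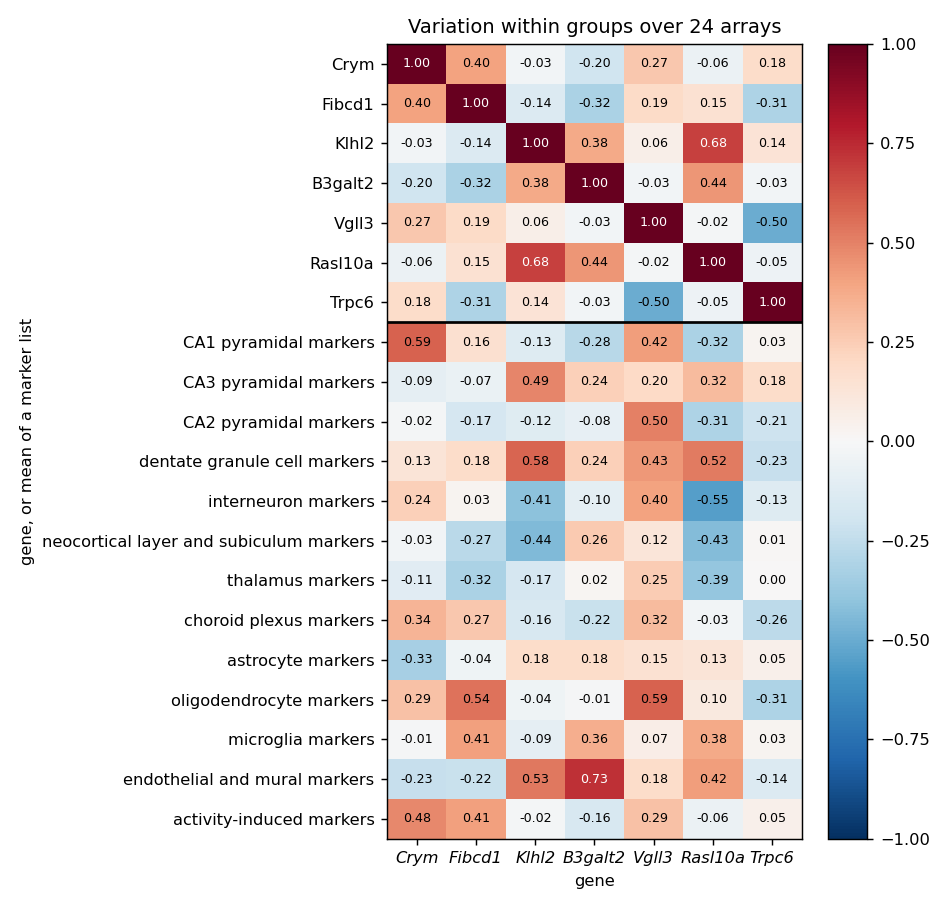
Correlations between the 7 genes over 24 arrays after each group's mean was taken off, and below the line of each gene with the means of 13 marker lists, as a grid coloured by Pearson's r with the value in each cell. Klhl2 and Rasl10a form the strongest positive pair (0.68), Vgll3 and Trpc6 the strongest negative pair (-0.50), and B3galt2 stands at 0.73 with the endothelial and mural markers.

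Among all genes, those most like each of the 7 in the same measure were not themselves called between genotypes, averaged over states. Few genes were, 0.391% of all, so the lack of calls is no trait of these genes. Klhl2 varied most like Homer1, a postsynaptic scaffold gene (r = 0.88), followed by Ccnt2 (0.86) and Rngtt (0.85). Rasl10a varied most like Otub2 (0.84), a deubiquitinase, Thrsp (0.81) and Nptx1 (0.80), a secreted synaptic pentraxin. B3galt2 varied most like Cfap300 (0.85), Gzf1 (0.83) and Prkx (0.83), and Fibcd1 like Fam228a (0.82), Cyp2c29 (0.77) and Pfdn5 (0.77), a prefoldin subunit. Vgll3 varied most like Pop5 (0.76), Cnga4 (0.74) and Rnf180 (0.73), and Crym like Rpl13 (0.74), a ribosomal protein gene, Srp19 (0.73) and Tpd52l1 (0.72). Trpc6 varied most like Srpr (0.71), a subunit of the receptor for the signal recognition particle, Rsl1 (0.68) and Hnrnph2 (0.67). These are the highest correlations over 24 arrays among genes with more than a clone or model name, and the 95th percentile over all genes lay between 0.32 and 0.53. Their averaged genotype differences ran from -0.14 (Rsl1) to 0.13 (Pop5), with Homer1 at 0.00.

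Markers of hippocampal and neighbouring cell types, 14 lists with 115 measured genes, were compared in the same fit. Of 10 dentate granule cell markers, 9 had an averaged mutant minus WT difference below 0 (median -0.13, against 0.00645 over all genes) and 3 were called lower, where 0.216% of all genes were: Stxbp6 at -0.14 (adjusted p = 0.00968), C1ql2 at -0.29 (adjusted p = 0.0227) and Prox1 at -0.20 (adjusted p = 0.0355). Their mean level was 8.21 ± 0.10 in WT basal, 8.07 ± 0.07 in mutant basal, 8.23 ± 0.09 in WT learning and 8.13 ± 0.05 in mutant learning (SD, n = 6). The averaged difference was above 0 in 10 of 11 interneuron markers (median 0.10), 11 of 11 choroid plexus markers (median 0.18), 10 of 10 markers of neocortical layers and subiculum (median 0.07) and 6 of 8 CA3 markers (median 0.07). CA1 markers had a median of 0.03, and the medians of the other lists lay between -0.11 and 0.05. In these lists 0 genes were called. Over all 14 lists, 30 of the 115 genes had an unadjusted limma p under 0.05 between genotypes, averaged over states. That is 26.1%, against 8.86% of all genes. Of the activity-induced genes 14 of 14 were called higher after learning, where 31.7% of all genes were. Among them Fos rose by 1.66, Arc by 0.93 and Egr2 by 1.05.

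Some of the 7 genes moved with these markers from array to array, once group means were taken off. Klhl2 and Rasl10a followed the mean of the dentate granule cell markers (r = 0.58, rho = 0.50, and r = 0.52, rho = 0.43), and Rasl10a ran against the interneuron markers (r = -0.55, rho = -0.50). Values as high were found with other lists: Klhl2 stood at r = 0.53 (rho = 0.55) with the endothelial and mural markers, and Rasl10a at r = 0.61 (rho = 0.66) with Alas2, the 1 red blood cell marker measured. Crym followed the CA1 markers (r = 0.59, rho = 0.64) and B3galt2 the endothelial and mural markers (r = 0.73, rho = 0.64). Fibcd1 and Vgll3 followed the oligodendrocyte markers (r = 0.54, rho = 0.49, and r = 0.59, rho = 0.49), and Vgll3 the CA2 markers (r = 0.50, rho = 0.49). The values named are the largest over the 7 genes and 14 lists. Without the 2 arrays farthest from the median of the marker mean, they ran in size from 0.43 (Rasl10a, interneuron) to 0.61 (Vgll3, CA2). B3galt2 then stood at 0.55 with the endothelial and mural markers. Over all single genes, the 95th percentile of r with B3galt2 was 0.53. With the dentate marker mean as a covariate, the averaged genotype difference of Rasl10a was -0.20, that of Klhl2 -0.13, that of Vgll3 -0.25 and that of B3galt2 -0.23. Under the same covariate Crym stood at -0.30 and Fibcd1 at -0.31, close to their values without it, and Trpc6 at -0.39. With the interneuron marker mean, Rasl10a stood at -0.16, Klhl2 at -0.14, Trpc6 at -0.26 and Vgll3 at -0.45. With WT basal arrays 1 to 3 alone, the basal differences were -0.40 in Crym and Fibcd1, -0.21 in Klhl2, -0.22 in B3galt2, -0.44 in Vgll3, -0.46 in Rasl10a and -0.11 in Trpc6. These covariates were added after the data were seen, and the part of cell makeup in the genotype differences was not tested beyond these values.

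**Figure D5:**
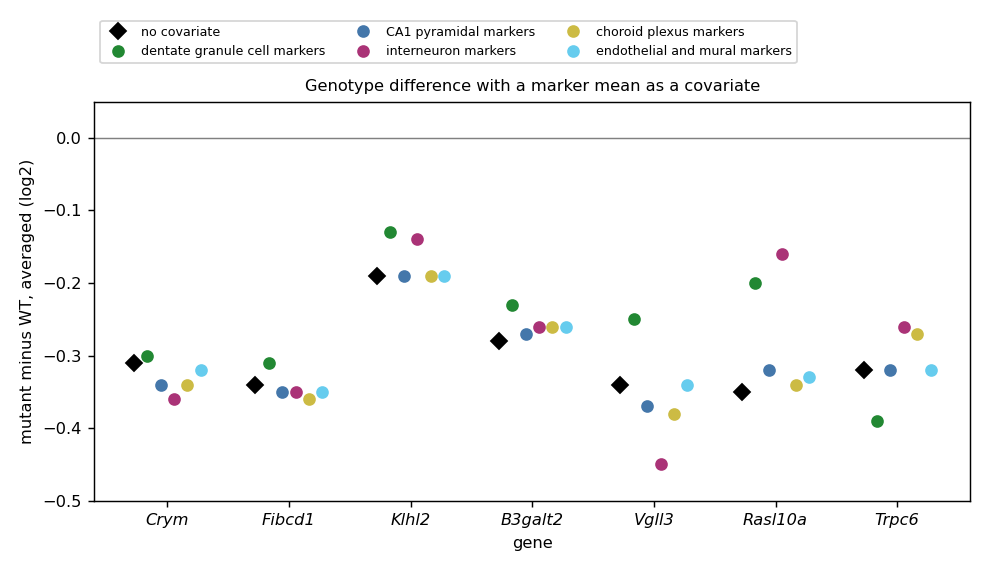
Averaged genotype difference of each of the 7 genes, on the log2 scale, without a covariate (diamonds) and with the marker mean of each of 5 cell types as a covariate (circles). Rasl10a moves from -0.35 to -0.20 with the dentate markers and to -0.16 with the interneuron markers, while Crym and Fibcd1 stay near -0.31 and -0.34 with the dentate markers (-0.30 and -0.31).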

How the data were processed

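RNA was measured on 24 arrays, 6 per group, with samples grouped by genotype and state from the labels. The values used are the authors' deposited log2 signals from RMA, per the submitters' processing notes. This method subtracts background, makes the distributions of all arrays alike by quantiles and combines each gene's probes into 1 value. Its version and chip definition were not given in the sources used here. Of 35511 probes, 21789 carried 1 gene symbol by the platform annotation of 2016. For genes with several such probes the probe with the highest mean was kept, which left 19938 genes, and each of the 7 genes had 1 probe.

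In R 4.3.3 with limma 3.58.1, lmFit gave each group a mean in 1 model of 24 arrays, and eBayes with a trend moderated each gene's spread (20 residual degrees of freedom). P-values are two-sided, adjusted by Benjamini-Hochberg over all genes of a comparison, and called under 0.05. The same code was tested on simulated data. The number of arrays limits the precision, and the labels name no batch.

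The 7 genes, the lists and the rules were chosen with earlier results of these data known. By rule the text names the 7 genes and Foxo6, the 3 most correlated genes of each of the 7, skipping clone and model names, and draws from each pathway list on up to 3 called genes per direction or the gene with the smallest p, and from each marker list on up to 2 called genes. Named outside this rule, after their values were seen, were Grp, Dgkh, Mdm4, Ewsr1, Prox1, Wfs1, Ttr, Alas2, Fos, Arc, Egr2 and relatives by name. Alternatives were a second quantile normalization, centring on array medians, the mean of a gene's probes, fits on the arrays of 1 genotype or state, array weights, no trend, a filter on dim genes, every probe, a replicate block and each array left out. Added after the data were seen were marker means as covariates and a reduced WT basal group. Start-site windows and gene positions come from RefSeq on GRCm38.p6.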

Additional observations from a re-analysis of the deposited data

Results flagged for a closer look

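Of 32 groups of 6 arrays, the 7 genes and Foxo6 in 4 groups each, 5 held an array whose gap to the nearest other array was, as a share of the group's range, above Dixon's 95% critical value. Chance flags about 1 in 20 groups. Of these, 3 are the same array, mutant basal array 6: Klhl2 was 10.67 there with the nearest at 10.80, Trpc6 was 8.08 with the nearest at 8.51, and Foxo6 was 6.59 with the nearest at 6.32. The array was thus the lowest of its group in both members and the highest in Foxo6. Vgll3 was 6.40 on mutant learning array 6, with the nearest at 5.99. Trpc6 was 8.26 on WT basal array 1, with the nearest at 8.75.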

How the results depend on the processing

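The 7 genotype differences stayed below 0 under every alternative run, 809 values in all, the nearest to 0 being -0.11. The genes were chosen for this sign, so the count lends it no support. Some alternatives could not change a difference, such as no trend, every probe, or the mean of a gene's probes. Leaving out an array of the other state could not change a difference within 1 state either. The counts of genes called after learning were 6 averaged, 4 in WT and 4 in the mutant. They stayed within 5 to 7, 3 to 5 and 3 to 5 when an array was left out, with 0 to 0 for the interaction. The filter on dim genes removed Vgll3, so no count over 7 genes could be given there.

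Single calls moved. Averaged over genotypes, Klhl2 lost its call without the trend (adjusted p = 0.0798), with every probe tested (0.051) and with WT basal arrays 1 to 3 alone (0.0585). Rasl10a was called after a second quantile normalization (0.0375), with array weights (0.0207) and with WT basal arrays 1 to 3 alone (0.039). In WT, Vgll3 lost its call after the second quantile normalization (0.0722), and Klhl2 gained one in WT (0.0149) and in the mutant (0.0137), falling by 0.11 in each. The causes were not tested.

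The sign turned only for interactions near 0. That of Fibcd1 was 0.01 after the second quantile normalization, 0.01 with array weights and 0.05 with WT basal arrays 1 to 3 alone, and ran from -0.04 to 0.02 when an array was left out. That of Klhl2 was 0.00 after the second quantile normalization and ran from -0.02 to 0.03 when an array was left out.

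With the replicate number as a block, the counts stayed 6, 4 and 4 and no call of the 7 genes changed (Klhl2 adjusted p = 0.0473, Rasl10a 0.0747, averaged). Same-numbered arrays deviated together at r = -0.30 to 0.26, over 0.1 in 4 of 24 pairs, and 3 of the comparisons had 1 array that correlated best with its own number, so the numbers were not taken to pair the samples.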
